A study of Mus musculus with 26 samples.

Results

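Interferon response and antigen presentation genes were followed in mouse frontal cortex: 41 genes, listed by name, of the 55487 genes in the count tables. They form 4 groups: 5 RNA sensors, 9 signalling genes, 22 antiviral effectors and 5 genes of MHC class I presentation. All 41 were found. Of these, 40 passed the filter on low counts and were tested with the 18050 genes that passed in all; the sensor Zbp1, at 4 to 28 counts per library, did not pass.

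The mice were adolescent littermates that carried an Adnp frameshift and are labelled HET or Mutant, or were wild type (WT). Adnp encodes a zinc finger and homeodomain protein of chromatin. RNA came from 7 HET and 7 WT mice, 1 library each, with 32814841 to 48291175 counts per library. Open chromatin, read by transposase insertion (ATAC-seq), was deposited as 1 merged peak list for HET and 1 for WT. All are bulk tissue, in which fewer cells of a type and less RNA per cell cannot be told apart. Adnp itself averaged 6.90 ± 1.30 CPM (TMM-scaled counts, comparable between libraries) in HET, against 6.55 ± 0.875 CPM in WT libraries (SD, n = 7 each; log2 fold change 0.074, adjusted p = 0.772). Counts per gene do not separate the frameshift allele from the normal one, so this level does not check the labels.

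Type I interferons are secreted by cells that sense viral nucleic acid. They bind a receptor that signals through JAK kinases to transcription factors, STAT2 and IRF9 among them, which bind the interferon-stimulated response element (ISRE) in the promoters of responsive genes. Among the products are the sensors themselves, proteins that block viral replication, and the MHC class I machinery that displays peptides to T cells. In uninfected brain these genes run at a low basal level, with microglia, endothelium and neurons among the cells that hold class I genes.

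The ISRE was searched as GAAA, any 2 bases, GAAA, or on the other strand TTTC, any 2 bases, TTTC, in RefSeq promoter windows (GRCm38.p6) of 250 bases before to 50 after the start of a gene. Of the 41 members, 30 matched by symbol, with 36 windows in all. Of the 30, 13 held a match (Ifih1, Ddx58, Eif2ak2, Stat2, Ifit1, Ifit3, Isg15, Oas1a, Oas3, Bst2, Rsad2, Ifitm3 and B2m). Counted by window, 13 of the 36 held a match, against 3.44% of all 32851 windows. The gamma-activated site was searched as TTC, any 3 bases, GAA, which reads the same on both strands. It was found in 8 of the 30 members and in 8 of their 36 windows, against 8.30% of all windows. Neighbouring matches of the ISRE letters may overlap. The upstream stretches of Ifit1, Ifit3 and Isg15 are shown because they hold 2, 2 and 3 ISRE matches, which are in capitals, and because their levels varied widely between libraries; the 3 were picked after their values were seen.
Ifit1, chr19:34640765-34640833, + strand: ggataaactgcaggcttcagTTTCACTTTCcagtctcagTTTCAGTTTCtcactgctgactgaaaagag
Ifit3, chr19:34583353-34583436, + strand: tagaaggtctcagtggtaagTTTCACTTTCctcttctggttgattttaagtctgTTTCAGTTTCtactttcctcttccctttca
Isg15, chr4:156200855-156200916, - strand: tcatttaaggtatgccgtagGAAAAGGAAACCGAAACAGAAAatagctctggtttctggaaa
The 3 matches in Isg15 overlap one another and form 1 run, while the matches in Ifit1 and in Ifit3 stand apart. A match describes letters and does not show that a factor binds there.

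The next windows, each 300 bases, belong to members whose start lies in or near a deposited peak and which hold an ISRE match (Ifih1, Stat2, B2m), or which are class I genes with a peak (B2m, H2-D1, Tap1). Capitals mark the ISRE matches, and the windows of H2-D1 and Tap1 have none.
Ifih1, chr2:62646206-62646505, - strand: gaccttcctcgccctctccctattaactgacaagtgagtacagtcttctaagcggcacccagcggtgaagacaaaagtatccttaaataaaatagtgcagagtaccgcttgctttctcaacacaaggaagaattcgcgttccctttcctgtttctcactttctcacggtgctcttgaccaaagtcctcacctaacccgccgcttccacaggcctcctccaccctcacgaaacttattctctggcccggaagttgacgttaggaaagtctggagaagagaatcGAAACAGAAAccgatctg
Stat2, chr10:128270248-128270547, + strand: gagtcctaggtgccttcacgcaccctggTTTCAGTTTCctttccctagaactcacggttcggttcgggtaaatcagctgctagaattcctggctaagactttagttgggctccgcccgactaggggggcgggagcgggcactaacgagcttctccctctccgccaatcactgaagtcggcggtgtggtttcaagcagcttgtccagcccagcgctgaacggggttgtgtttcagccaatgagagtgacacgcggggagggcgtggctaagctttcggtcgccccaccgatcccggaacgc
B2m, chr2:122147437-122147736, + strand: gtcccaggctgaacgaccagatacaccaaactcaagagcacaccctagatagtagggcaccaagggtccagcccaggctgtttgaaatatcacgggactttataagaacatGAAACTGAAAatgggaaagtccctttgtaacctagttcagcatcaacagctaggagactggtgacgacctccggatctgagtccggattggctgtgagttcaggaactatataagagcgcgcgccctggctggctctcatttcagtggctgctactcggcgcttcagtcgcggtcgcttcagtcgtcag
H2-D1, chr17:35262844-35263143, + strand: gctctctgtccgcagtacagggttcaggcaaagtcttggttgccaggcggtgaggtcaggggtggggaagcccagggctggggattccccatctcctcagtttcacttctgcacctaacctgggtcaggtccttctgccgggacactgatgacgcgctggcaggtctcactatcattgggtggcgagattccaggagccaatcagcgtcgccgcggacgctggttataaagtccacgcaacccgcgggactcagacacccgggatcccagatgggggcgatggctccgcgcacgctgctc
Tap1, chr17:34187306-34187605, + strand: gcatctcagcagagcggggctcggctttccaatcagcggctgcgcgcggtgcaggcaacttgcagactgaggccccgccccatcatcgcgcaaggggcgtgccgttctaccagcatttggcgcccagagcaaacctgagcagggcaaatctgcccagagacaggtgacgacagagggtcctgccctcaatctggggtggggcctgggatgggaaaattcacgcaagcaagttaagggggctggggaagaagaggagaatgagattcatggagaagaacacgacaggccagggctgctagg
In the windows of B2m and Stat2 the match lies inside the peak of the HET list and outside that of the WT list, at chr2:122147548-122147557 and chr10:128270276-128270285. Both genes have a peak in both lists, and the WT peaks begin shortly after these matches, at chr2:122147600 and chr10:128270313. In Ifih1 the match lies after the start, inside the WT peak, and the HET list has no peak there. The lists are merged, without replicates and with unknown caller settings and depth. A difference in open chromatin at these matches was therefore not tested.

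No member passed the test for a difference between HET and WT. Of the 40 tested members, 0 were called in edgeR at an adjusted p under 0.05, against 175 of all 18050 genes tested (0.97%), of which 106 were higher (0.587%) and 69 lower (0.382%) in HET. The count was also 0 with DESeq2 and with limma-voom, which called 8.33% and 10.7% of all genes. The lowest adjusted p of a member was 0.140, for B2m. At an unadjusted p under 0.05 there were 5 members, against 22.2% of all genes. Oas2, Irf7, Parp9 and Lgals3bp had higher means in HET, and B2m a lower one (all genes 11.8% higher and 10.4% lower). In none did the 7 HET libraries lie wholly above or below the 7 WT libraries, which 0.715% of all genes did (0.432% above and 0.283% below).

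The fold changes leaned to one side without passing the test. The log2 fold change, HET over WT, was above 0 for 34 of the 40 members (median 0.177), and for 53.3% of all genes tested (median 0.017). It was above 0 for 4 of 4 sensors (median 0.24), 8 of 9 signalling genes (0.12), 18 of 22 effectors (0.211) and 4 of 5 class I genes (0.019). With DESeq2, 34 of the 40 members were above 0 (median 0.171), and with limma-voom, which weighted the libraries, 24 of 40 (median 0.077). The share of all genes above 0 was not counted for these fits. Leaving out 1 library, HET 4, left 26 of 40 above 0 and a median of 0.05, where 53.4% of all genes were above 0. With that library 36 of the 40 had a larger fold change than without it. HET 4 was the highest library for 26 of the 40, so the 36 restates its high levels and is no separate result. The same count was not made over all genes. With the mean of 6 excitatory neuron markers as a covariate, a mean that also sat lower in HET, 11 of 40 were above 0 and the median was -0.09. With the mean of 7 oligodendrocyte markers as the covariate, 30 of 40 were above 0 and the median was 0.104; both covariates were chosen after the data were seen. The members share libraries and move together, so their count is no count of independent events.

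**Figure D1:**
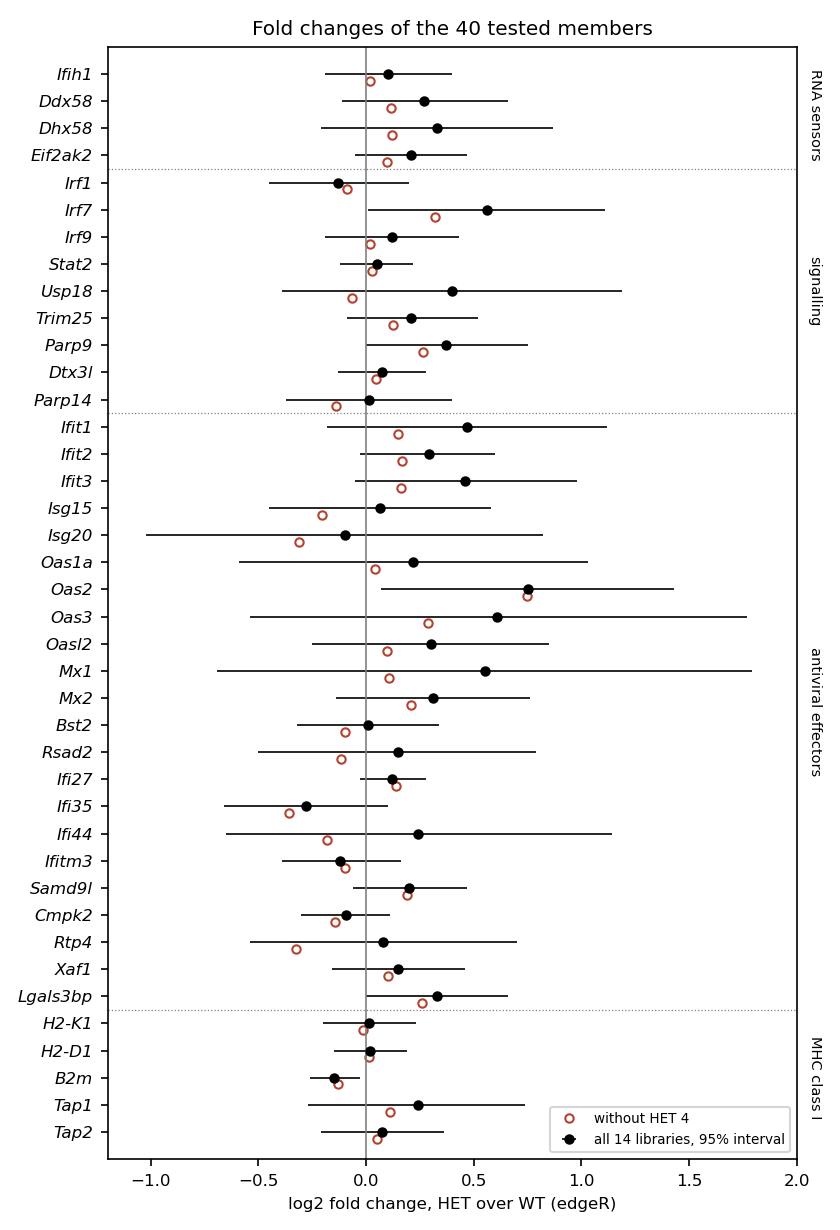
Log2 fold change of each tested member, HET over WT, in edgeR, with its 95% interval (black, 14 libraries) and the value without HET 4 (open circles), for 4 groups of genes from top to bottom. Most black points sit right of 0 with intervals that cross it. Of the 40 open circles, 36 sit left of their black point, a shift that restates the high levels of HET 4.

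The RNA sensors are helicases and kinases that recognise double-stranded RNA in the cytoplasm. Ddx58, which encodes RIG-I, ran from 4.95 through a median of 6.59 to 10.8 CPM in HET, and from 3.88 through 5.79 to 7.11 CPM in WT. A single HET library lay above the highest WT library, and the other 6 fell among them. The log2 fold change was 0.27 (SE 0.179, 95% interval -0.11 to 0.66, adjusted p = 0.383). Eif2ak2, which encodes the kinase PKR that halts translation, had the highest length-scaled level of the sensors, 1.48 CPM per kilobase over all libraries. It ran from 7.07 through 7.69 to 11.7 CPM in HET, and from 6.00 through 6.89 to 8.63 CPM in WT. Without HET 4 the HET libraries spanned 7.07 to 7.76 CPM, inside the WT range. Its log2 fold change was 0.21 with all libraries (interval -0.05 to 0.47, adjusted p = 0.331) and 0.097 without HET 4.

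Dhx58 encodes LGP2, a relative of RIG-I that lacks its signalling domain. It ran from 1.12 through 1.25 to 3.06 CPM in HET, and from 0.853 through 1.22 to 1.78 CPM in WT. HET 1 and HET 4 stood above all WT libraries, and the medians lay close together (log2 fold change 0.33, interval -0.21 to 0.87, adjusted p = 0.463). Ifih1, which encodes MDA5, averaged 6.10 ± 1.02 CPM in HET and 5.68 ± 1.12 CPM in WT (n = 7 each). Zbp1, a sensor of Z-form nucleic acid, was at 0.104 to 0.727 CPM in HET and 0.0929 to 0.514 CPM in WT, and was not tested.

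Signalling genes carry the receptor's message or feed back on it. Irf7, the factor that amplifies type I interferon production, ran from 1.93 through 2.88 to 6.23 CPM in HET, and from 1.5 through 2.18 to 3.36 CPM in WT. HET 4 and HET 3 lay above the highest WT library, and the rest overlapped. The log2 fold change was 0.56 (SE 0.257, unadjusted p = 0.0451, adjusted p = 0.214), and 0.322 without HET 4 (unadjusted p = 0.148). Parp9, an ADP-ribosyltransferase relative that works with Dtx3l, ran from 3.26 through 4.03 to 6.04 CPM in HET, and from 2.30 through 3.01 to 4.47 CPM in WT. HET 3 and HET 4 were again the ones above WT (log2 fold change 0.37, SE 0.175, unadjusted p = 0.0495, adjusted p = 0.224). Parp9 and its neighbour Dtx3l share 458 exon bases, whose reads were left out of both. Dtx3l, the ubiquitin ligase of that pair, had a log2 fold change of 0.073.

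Trim25, the ubiquitin ligase that modifies RIG-I, ran from 6.81 through 9.18 to 13.2 CPM in HET, and from 6.10 through 8.84 to 9.58 CPM in WT (log2 fold change 0.21, interval -0.09 to 0.52, adjusted p = 0.395). HET 1, HET 3 and HET 4 were above all WT libraries. Stat2 had the highest length-scaled level of the group, 4.65 CPM per kilobase, and it ran from 22.3 through 28.2 to 33.0 CPM in HET, and from 25.1 through 26.6 to 28.8 CPM in WT. HET libraries lay on both sides of the WT range, 3 above and 2 below. The log2 fold change was 0.051 (interval -0.12 to 0.22, adjusted p = 0.749), so a change as large as that of Irf7 lies outside its interval. Usp18, the protease that removes ISG15 and dampens the receptor, ran from 0.599 through 1.26 to 3.99 CPM in HET, and from 0.621 through 1.12 to 1.52 CPM in WT. HET held both the highest and the lowest library. Of the other signalling genes, Irf9 and Parp14 had fold changes of 0.12 and 0.012, and Irf1, the interferon gamma responsive factor, of -0.13; 796 of the 3976 exon bases of Irf1 are shared with another gene.

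The antiviral effectors act on viral RNA, protein or membranes. Oas2, which makes the oligoadenylate that activates RNase L, had the smallest unadjusted p of the group. It ran from 0.339 through 1.08 to 1.64 CPM in HET, and from 0.429 through 0.519 to 0.968 CPM in WT, low levels that rest on 13 to 69 counts per library. HET 1, 3, 4 and 5 were above all WT libraries and HET 6 was below them all. The log2 fold change was 0.75 (SE 0.319, interval 0.07 to 1.43, unadjusted p = 0.0321, adjusted p = 0.183 in edgeR). Without HET 4 it was 0.745 (unadjusted p = 0.0457), and no other effector had an unadjusted p under 0.05 in that fit. Its relatives Oas1a, Oas3 and Oasl2 had fold changes of 0.22, 0.61 and 0.30; Oas1a has near-identical copies in the genome, so its counts are uncertain.

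Lgals3bp, a secreted galectin-binding glycoprotein, ran from 19.4 through 24.0 to 31.9 CPM in HET, and from 12.1 through 20.7 to 26.4 CPM in WT. HET 1, HET 4 and HET 6 were above all WT libraries (log2 fold change 0.33, SE 0.154, unadjusted p = 0.0496, adjusted p = 0.224). Ifit2, of the IFIT family that binds foreign RNA ends and translation factors, ran from 11.4 through 15.4 to 24.0 CPM in HET, and from 10.9 through 13.3 to 15.2 CPM in WT. It was above all WT libraries in 4 of 7 HET libraries (log2 fold change 0.29, interval -0.03 to 0.60, adjusted p = 0.265). Ifitm3, a membrane protein that stops viral fusion and the effector with the highest length-scaled level at 17.1 CPM per kilobase, ran from 8.93 through 10.7 to 14.7 CPM in HET, and from 9.29 through 11.6 to 16.6 CPM in WT. No HET library lay above the WT range (log2 fold change -0.12, interval -0.39 to 0.16, adjusted p = 0.631).

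Ifit1, Ifit3 and Rtp4 are given because HET 4 was far above the rest in them, and Ifit3b as a copy of Ifit3, a choice made after their values were seen. Ifit1 ran from 1.98 through 4.83 to 10.8 CPM in HET, and from 2.27 through 3.48 to 4.54 CPM in WT. Ifit3 ran from 7.70 through 11.2 to 28.2 CPM in HET, and from 7.42 through 9.92 to 12.9 CPM in WT. Part of its reads may be lost because of its near-identical copy Ifit3b. That copy ran from 5.34 through 6.78 to 16.3 CPM in HET, and from 3.62 through 4.86 to 6.08 CPM in WT, with 6 of 7 HET libraries above all WT libraries. Its log2 fold change was 0.76 (SE 0.23, unadjusted p = 0.0049, adjusted p = 0.0906), and 0.484 without HET 4 (unadjusted p = 0.00532, adjusted p = 0.133). Rtp4, a chaperone of receptors with antiviral activity, ran from 1.54 through 1.87 to 5.86 CPM in HET, and from 1.61 through 2.23 to 3.12 CPM in WT. In each, HET 4 was the highest of 14 libraries. For Ifit1, 3 other HET libraries also lay above the WT range and 1 below it. Ifit1 and Ifit3 had log2 fold changes of 0.47 and 0.46 (adjusted p = 0.376 and 0.274), and 0.147 and 0.16 without HET 4. For Rtp4 the fold change was 0.077 with HET 4 and -0.324 without it (adjusted p = 0.903 and 0.326). The 12 remaining effectors had log2 fold changes between -0.28 (Ifi35) and 0.55 (Mx1), and their adjusted p-values were 0.325 or above.

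**Figure D2:**
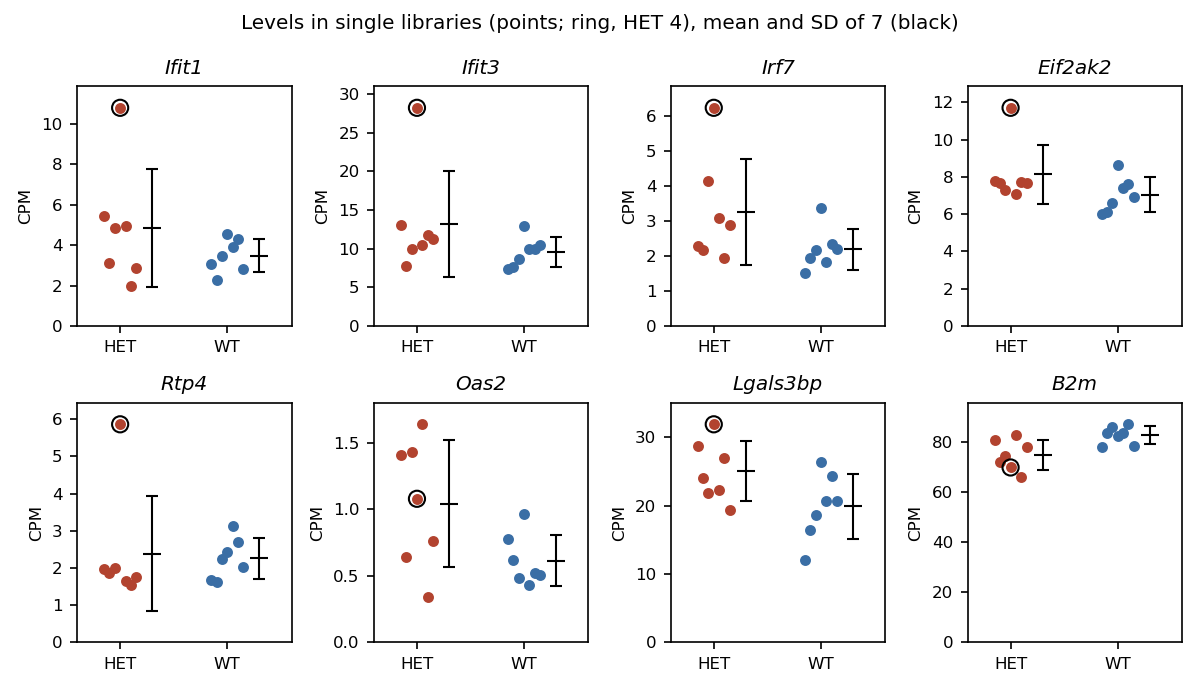
Level in CPM of 8 members in each library (points), HET left and WT right, with the mean and SD of 7 libraries in black and HET 4 ringed. HET 4 is the highest point for Ifit1, Ifit3, Irf7, Eif2ak2, Rtp4 and Lgals3bp, while for Oas2 and B2m it lies within the other HET libraries, and HET and WT overlap in all 8.

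Class I genes build the peptide display of the cell surface. B2m, the light chain of every class I molecule, was the most abundant of the group at 91.4 CPM per kilobase. It ran from 65.8 through 74.2 to 82.7 CPM in HET, and from 78.0 through 83.4 to 86.9 CPM in WT. HET lay below the lowest WT library in 5 of 7 libraries, and no HET library was above the WT range. The log2 fold change was -0.15 (SE 0.054, interval -0.26 to -0.03, unadjusted p = 0.0164, adjusted p = 0.140). The heavy chains H2-K1 and H2-D1 averaged 30.2 ± 3.28 and 46.7 ± 4.55 CPM in HET, against 29.9 ± 4.84 and 46.1 ± 5.24 CPM in WT. Their fold changes were 0.015 (interval -0.20 to 0.23) and 0.019 (interval -0.15 to 0.19); reads of H2 genes can be lost among similar copies.

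Tap1 and Tap2 form the transporter that brings peptides to class I. Tap1 ran from 2.51 through 3.13 to 5.43 CPM in HET, and from 1.42 through 3.34 to 4.4 CPM in WT (log2 fold change 0.24, interval -0.27 to 0.74, adjusted p = 0.590). Tap2 ran from 4.26 through 5.80 to 6.38 CPM in HET, and from 4.08 through 4.89 to 6.80 CPM in WT (log2 fold change 0.075, adjusted p = 0.786), and shares 18.5% of its exon bases with other genes. HET 4 and HET 6 were above all WT libraries for Tap1, and for Tap2 no HET library was outside the WT range.

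Single libraries stood apart within a genotype. HET 4 was the highest of the 14 libraries for 26 of the 40 tested members, against 15.3% of all genes tested. These were 4 of 4 sensors, 6 of 9 signalling genes, 15 of 22 effectors and 1 of 5 class I genes. Over the 40 members the level in HET 4 was at the median 1.59 times the median of the other 13 libraries, against 1.00 over all genes. The ratio passed 1.5 for 24 members, against 11.3% of all genes. It was 3.57 for Usp18, 3.09 for Ifit1, 2.96 for Rtp4, 2.84 for Irf7 and 2.81 for Ifit3, and 0.865 for B2m. The SD as a share of the mean had a median of 25.8% in HET and 19.9% in WT, and of 19.2% in HET without HET 4.

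**Figure D3:**
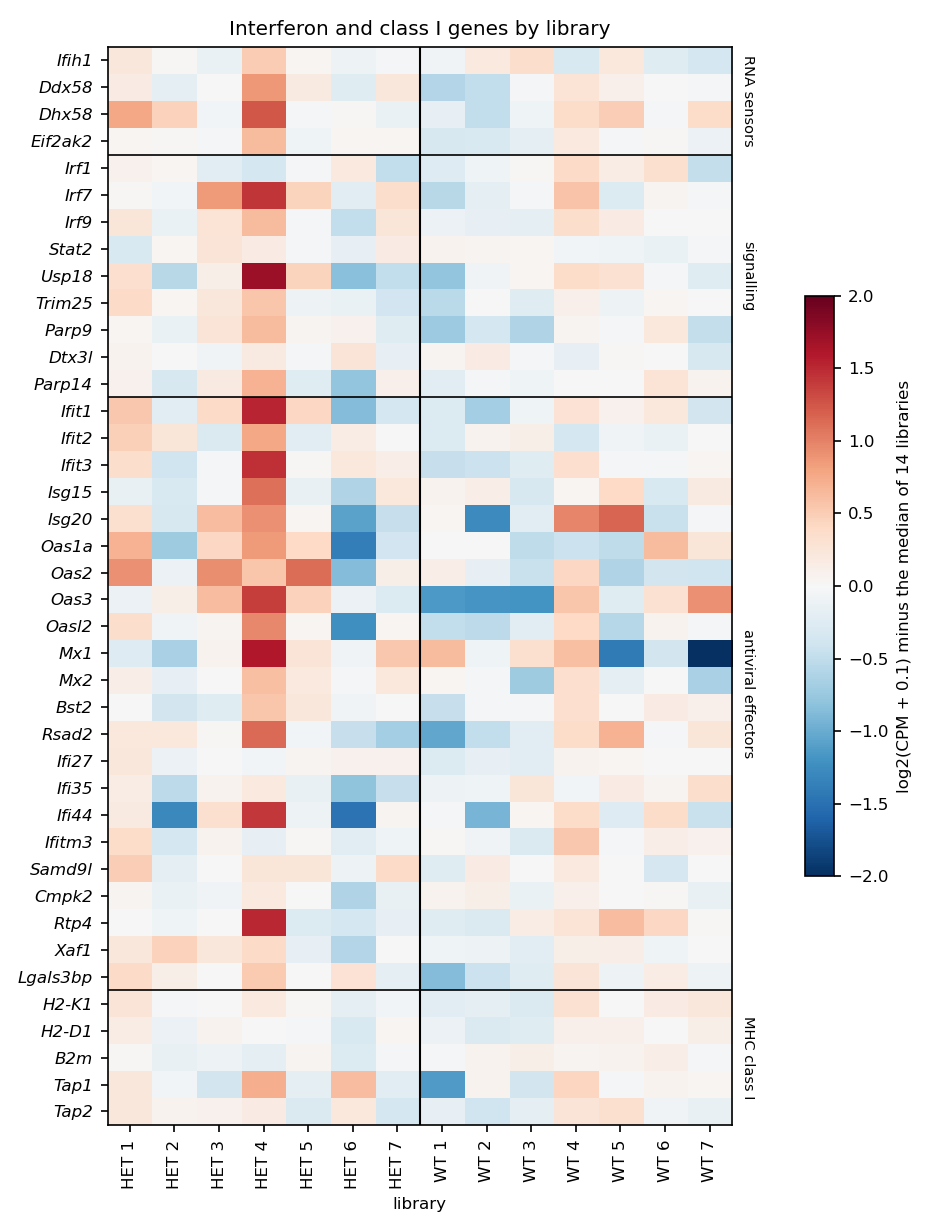
Level of each tested member (rows, by group) in each library (columns, HET left of WT) as log2(CPM + 0.1) minus the median of the 14 libraries, with colours saturated at 2 either way. The HET 4 column is red through the sensors and most signalling genes and effectors and pale in the class I genes other than Tap1, and it is the highest of 14 for 26 of 40 members.

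Other libraries stood apart less. HET 6 was the lowest of 14 for 15 members, against 16.4% of all genes. WT 1 was the lowest for 11 members, and its share over all genes was not counted. The mean log2 CPM of the 22 effectors, set against its median over all libraries, was 0.889 in HET 4 and 0.317 in HET 1, and 0.331 in WT 4, the highest WT library. It was -0.436 in HET 6 and -0.266 in WT 2, the lowest of each genotype. Over genotypes this mean was 1.64 ± 0.42 in HET and 1.46 ± 0.20 in WT (SD, n = 7 each), and 1.52 ± 0.28 in HET without HET 4. The class I mean was 4.19 ± 0.12 in HET and 4.15 ± 0.19 in WT, a gap smaller than either SD.

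The libraries with high effector levels also differed in cell type markers. The summed CPM of 6 excitatory neuron markers was 906 in HET 4 and 1870 in HET 1, and 2770 in WT 4; these were the lowest 3 of 14, against medians of 3640 in HET and 6250 in WT. All 6 of these markers had lower means in HET (range of the sum 906 to 6370 in HET and 2770 to 8310 in WT), 5 at an unadjusted p under 0.05 (10.4% of all genes were lower at that p) and 0 called. The 7 oligodendrocyte markers summed to 9870 CPM in HET 4, the highest, and 2200 CPM in HET 6, the lowest, with 4310 to 7420 CPM in WT. HET 6 also had the highest choroid plexus sum, 743 CPM. In the covariate fits above, 6 (excitatory) and 15 (oligodendrocyte) of 22 effectors had a fold change above 0. The excitatory mean differed by genotype (log2 CPM 7.0 ± 1.34 in HET and 8.41 ± 0.83 in WT) and was lowest in HET 4. Genotype, that library and tissue makeup therefore cannot be told apart in that fit. The part of these cell types in the effector levels was not tested.

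Markers of microglia, blood and endothelium were read in the same libraries. All 13 microglia markers had lower means in HET, 6 at an unadjusted p under 0.05 (10.4% of all genes) and 0 called; they summed to 318 to 455 CPM in HET and 411 to 469 CPM in WT. In HET 4 the sum was 336 CPM, under every WT library, as were HET 1 (380 CPM), HET 2 (361 CPM), HET 6 (318 CPM) and HET 7 (360 CPM). The lymphocyte and myeloid markers were lowest in HET 4, at 10.9 CPM, within 10.9 to 41.9 CPM in HET and 16.0 to 34.6 CPM in WT; 5 of the 12 did not pass the filter, and of the other 7 the fold change was above 0 for 4. All 5 red cell genes had lower means in HET, with sums of 106 to 201 CPM in HET and 136 to 438 CPM in WT; HET 4, at 201 CPM, was the highest in HET. Endothelial markers summed to 324 CPM in HET 4, the highest of 14, within 262 to 324 CPM in HET and 269 to 315 CPM in WT. What part these cells have in the member levels was not tested.

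**Figure D4:**
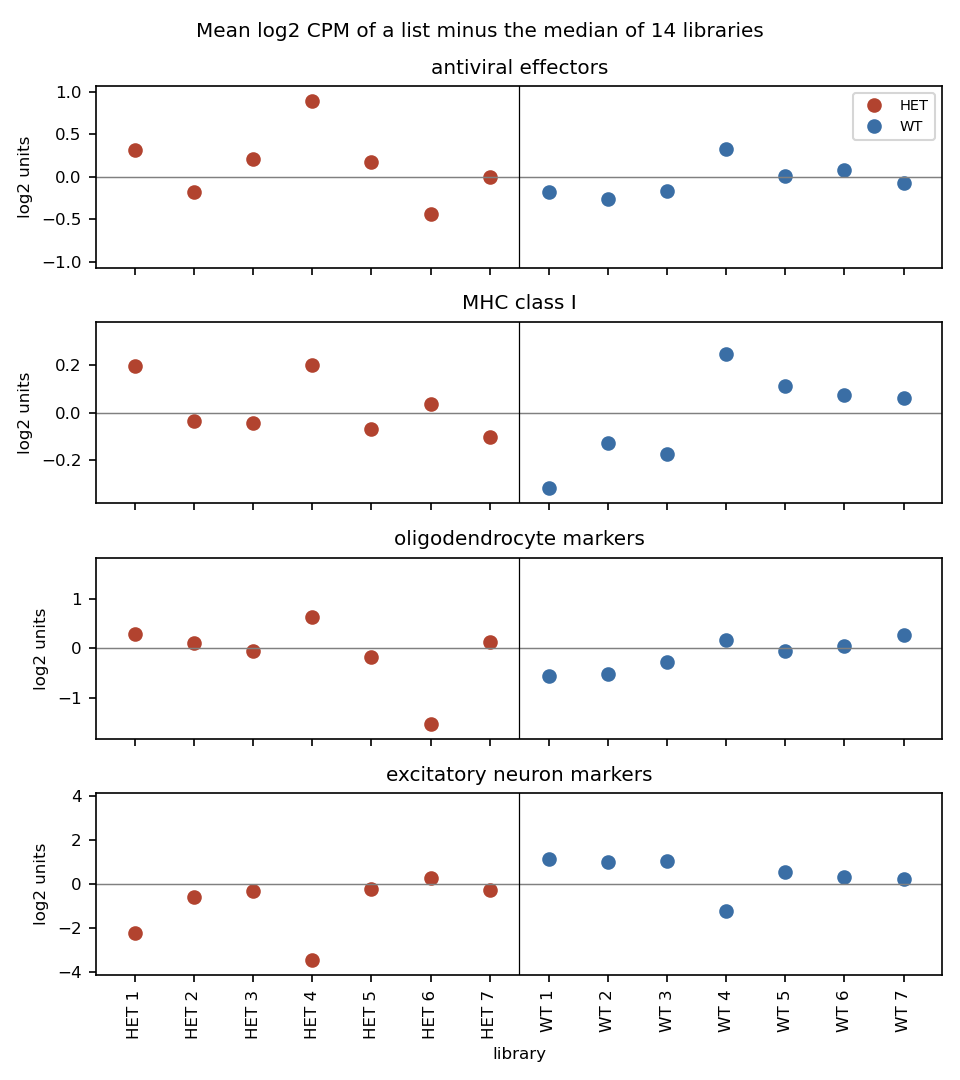
Mean log2 CPM of a list in each library minus the median of the 14 libraries, HET left of WT, for antiviral effectors, class I genes, oligodendrocyte markers and excitatory neuron markers, each panel on its own scale. HET 4 is highest for the effectors (0.889) and oligodendrocyte markers and lowest for the excitatory markers, and WT 4, the highest WT library for the effectors, is the lowest WT library for the excitatory markers.

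The effectors did not all vary together. After the genotype means were removed, the correlation of each effector with the mean of the others over 14 libraries was 0.95 for Ifit1, 0.88 for Oasl2 and 0.88 for Ifi44, and 0.91, 0.83 and 0.80 without HET 4. It was 0.25 for Ifit2, 0.20 for Mx1 and 0.18 for Ifi27, and -0.28, -0.09 and 0.50 without HET 4. The 14 points share library depth and tissue makeup, and Mx1 had few counts. The 10 other genes most like the effector mean by the same measure were Ddah1, Zfp219, 4930452G13Rik, Sox13, Gpr153, Rgma, Olfm3, Pcx, Zdbf2 and Srp72. Their correlations ran from 0.91 to 0.953, and none was on a list of interferon or antigen presentation genes used here. Ddah1 was at 182 CPM in HET 4 against a median of 122 CPM in the other 13 libraries.

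A wider set held other genes of the pathway. Of the 93 that passed the filter, 0 were called in edgeR; 15 had an unadjusted p under 0.05 (22.2% of all genes), of which 5 had higher (all genes 11.8%) and 10 lower (10.4%) means in HET. DESeq2 called 7, 6 of them lower (Calr, H2-T23, Herc6, Irf2, Ly6e, Psmb8) and Ifit3b higher, and limma-voom called 6, of which 5 were lower, where these tools called 8.33% and 10.7% of all genes. Leaving out HET 6 gave 3 calls (H2-T23, Herc6, Ly6e) and leaving out WT 4 gave 5 (those and Irf2 and Znfx1), all lower in HET, where 6.09% and 9.18% of all genes were called. The number of members called was 0 in each of the 24 other settings tried, which called between 0.0554% and 10.7% of all genes.

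Of 11 tested genes for interferons, receptors and JAK-STAT signalling, 0 had an unadjusted p under 0.05; the log2 fold change was above 0 for 4 and below 0 for 7. Ifnar1, a chain of the type I receptor, averaged 42.7 ± 3.33 CPM in HET and 43.4 ± 3.40 CPM in WT. Ifngr2, a chain of the interferon gamma receptor, had the smallest p of that list (log2 fold change -0.14, adjusted p = 0.239). Of 18 sensor adaptors and IRF activators, 2 were higher and 1 lower at an unadjusted p under 0.05 (11.8% and 10.4% of all genes). The 1 lower was Irf2, a factor that opposes Irf1, with 18.8 ± 3.16 CPM in HET and 24.4 ± 3.74 CPM in WT (log2 fold change -0.38, adjusted p = 0.0982).

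Of 38 other interferon-induced genes, 1 was higher and 4 lower at that p, against the same shares of all genes. Ly6e, a membrane-anchored protein induced by interferon, averaged 141 ± 14.7 CPM in HET and 198 ± 35.5 CPM in WT (log2 fold change -0.49, SE 0.112, adjusted p = 0.0525). It ran from 130 to 171 CPM in HET and from 127 to 235 CPM in WT, so the genotypes overlapped. Of 19 antigen processing genes, 2 were higher and 5 lower at that p, again beside 11.8% and 10.4% of all genes. Among the lower was H2-T23, a non-classical class I gene, with 13.3 ± 2.25 CPM in HET and 18.5 ± 3.48 CPM in WT (log2 fold change -0.48, adjusted p = 0.0766). Of 7 class II genes none passed an unadjusted p of 0.05. The log2 fold change was above 0 for 6 and below 0 for 1 (median 0.297). The 1 below 0, H2-DMa, which edits class II peptides, had the smallest p (log2 fold change -0.25, adjusted p = 0.265).

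Few members had open chromatin at their start in the deposited lists. A peak lay within 1000 bases of the 5′ end of the gene for 10 of 41 members in the HET list and for 11 of 41 in the WT list. That is 24.4% and 26.8% of members, against 63.6% and 57.2% of the genes tested. Both lists had a peak at Irf1, Irf9, Stat2, Cmpk2, Ifit2, Mx2, Rtp4, B2m, H2-D1 and Tap1, and the WT list alone at Ifih1. The 5′ end used is the outermost annotated exon edge of a gene. Rtp4 is annotated over chr16:23520291-23614222 with 2131 exon bases, and no RefSeq window was matched to it. Whether its main start lies at that peak was not tested. Of the 10 members with a peak in both lists, 3 are class I genes, 3 are signalling genes and 4 are effectors; no sensor had a peak in the HET list. With 1 merged list per genotype there is no replicate and no test.

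The level of a gene goes with its chance of a peak, so shares were also set within levels. Under 1 CPM per kilobase, 2 of 18 members had a peak in the HET list and 3 of 18 in the WT list, against 34.0% and 28.2% of genes tested at that level. From 1 to under 5 CPM per kilobase it was 5 of 14 in each list, against 65.4% and 58.1%. At 5 CPM per kilobase and over it was 3 of 8 in each list, against 82.4% and 76.1%. In all 3 ranges the share of members was below that of all genes; the numbers are small. The HET list holds 30862 peaks and the WT list 19272, and 55.9% of the HET peaks and 89.1% of the WT peaks overlap one of the other list.

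Where both lists had a peak, the spans overlapped in part (mm10, the same assembly as GRCm38). At B2m they ran over chr2:122147506-122148196 in the HET list and chr2:122147600-122148148 in the WT list. At Stat2 they ran over chr10:128270241-128270869 in the HET list and chr10:128270313-128270934 in the WT list. The promoter windows printed above for B2m, Stat2, H2-D1 and Tap1 overlap peaks of both lists. At Ifih1 the WT peak ran over chr2:62646072-62646439. Of the 13 members with an ISRE match, 3 had a peak in either list, and Ifit1, Ifit3 and Isg15 had none.

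**Figure D5:**
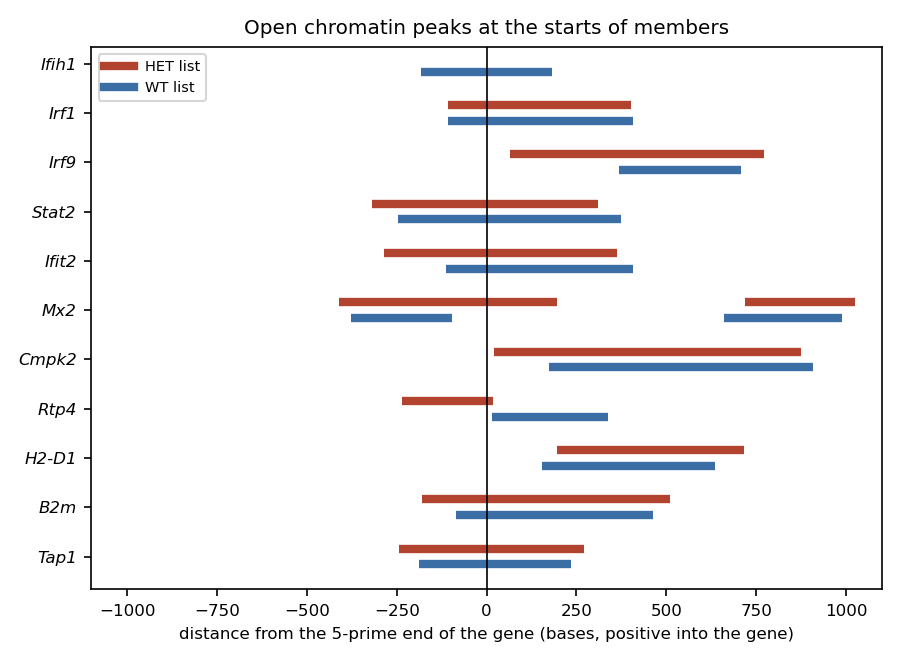
Span of each deposited peak around the 5′ end of the 11 members that have one, in bases from that end (positive into the gene), HET list above WT list. Most spans of both lists overlap widely, Ifih1 has a WT span only, and at Rtp4 the HET span ends 17 bases into the gene and the WT span begins 15 bases into it. The end used for Rtp4 is its outermost annotated edge, which was not checked against RefSeq.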

How the data were processed

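RNA was extracted from frontal cortex, selected by poly-A and sequenced as paired reads of 150 bases, per the labels' protocols. The authors' deposited values are raw counts per gene, made with featureCounts 2.0.1 over exons by gene ID on Ensembl GRCm38 release 102, per the file headers. Strand was ignored (setting 0), mates counted singly, and reads of several places or genes were left out. Members that overlap antisense or neighbouring genes therefore lose reads there. Of the tools, STAR and Trimmomatic were named with no version, per the submitters' processing notes. The 2 peak lists hold coordinates only, as the authors deposited them, merged by genotype; Bowtie2 2.4.4 and MACS3 were named, per the submitters' processing notes. The libraries behind each list, its caller settings and its depth are unknown here. Hi-C, PAT and Control samples were not analysed here.

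Of 55487 genes, 55141 IDs matched a symbol. Genes were kept by filterByExpr, scaled by TMM and compared by genotype alone in edgeR 4.0.16 (two-sided quasi-likelihood test, robust; Benjamini-Hochberg over all 18050 genes tested, threshold 0.05). CPM was computed with TMM-scaled library sizes; an error is the SD of 7 libraries. The common biological coefficient of variation was 0.248. Across the 91 pairs of libraries the chi-square of counts was at least 10.1 per degree of freedom, so none looked like a copy. The labels give 7 mice per genotype.

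The members and the pathway and marker lists were chosen with earlier results of these data known. The result of 1 pathway gene is left out here, and the list counts are without it. Named in full were members called, the 3 with the smallest p and the highest length-scaled level in each group, the smallest p of each pathway list, the 10 genes most correlated with the effector mean, and promoters with a peak and an ISRE match (class I: any peak). Alternatives were DESeq2 1.42.0, its size factors, limma-voom 3.58.1, no filter or one at 1 CPM in 7 libraries, a block for replicate number, each library left out, an adjusted p under 0.1, and other peak windows. Marker means as covariates and HET 4 and HET 6 left out together were added after seeing the data.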

Additional observations from a re-analysis of the deposited data

Results flagged for a closer look

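Each tested member was checked in each genotype, 80 checks in all, for a library set apart from its group (a gap to the nearest library that takes up most of the range of the 7, above Dixon's critical value). Of these, 12 were flagged, and in all 12 it was HET 4 as the highest HET library. The nominal rate is about 1 in 20 groups, which does not allow for a library that stands apart in many genes. The check was not run over all genes, so the 12 have no background share. HET 4 was the highest of 14 libraries for 15.3% of all genes tested, and the members share that library. Among sensors and signalling genes HET 4 had 10.8 CPM for Ddx58 (next HET library 6.87), 11.7 CPM for Eif2ak2 (next 7.76) and 3.99 CPM for Usp18 (next 1.61). Among effectors it had 10.8 CPM for Ifit1 (next 5.42), 28.2 CPM for Ifit3 (next 13.0), 4.14 CPM for Isg15 (next 2.20), 5.86 CPM for Rtp4 (next 2.01) and 4.78 CPM for Rsad2 (next 2.47). The low-count effectors were Ifi44 with 2.57 CPM (next 1.16), Mx1 with 1.21 CPM (next 0.528), Mx2 with 1.54 CPM (next 1.15) and Oas3 with 0.772 CPM (next 0.414). No class I gene and no WT library was flagged.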

How the results depend on the processing

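No member was called in any of the 24 settings. With the replicate number as a block 0 were called. Same-numbered libraries correlated from -0.284 to 0.334, above 0.1 for 2 of 7 numbers, and 1 of 7 matched its own number best. This gave no sign that the numbers pair mice, and such a check cannot exclude pairs of littermates. Depth limits Mx1, Oas1a, Oas3 and Zbp1 most, which had under 1 CPM in nearly all libraries. Isg20 and Oas2 were also low, at 8 to 65 and 13 to 69 counts per library. The causes of the changes below were not tested.

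Pathway genes called, 0 in edgeR, were 7 with DESeq2, 6 with limma-voom, 1 without a filter, 1 with a filter of 1 CPM, 6 with oligodendrocyte markers as a covariate and 6 at an adjusted p under 0.1; they were 0 to 5 with a library left out. Marker genes called, 0 in edgeR, were 3 with DESeq2, 4 with limma-voom, 4 with the oligodendrocyte covariate and 1 at an adjusted p under 0.1. In the main fit 93 pathway genes and 73 markers were tested. Of all genes, DESeq2 called 8.33%, limma-voom 10.7% and the fit without a filter 0.3%. The filter of 1 CPM gave 1.41%, and an adjusted p under 0.1 gave 6.62%. With the oligodendrocyte covariate 1809 of the 18050 genes tested were called. Keeping only the widest 50% of the peaks of each list left 9 of 41 members with a HET peak and 5 with a WT peak. Of these, 4 members (9.76%) were in the HET list alone and 0 in the WT list alone. Over all genes tested, 53.4% had a HET peak and 42.2% a WT peak, with 13.0% in the HET list alone and 1.8% in the WT list alone. Adnp had a log2 fold change of -0.055 with limma-voom and -0.018 without HET 4 and HET 6.

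None of the fold changes that changed sign belonged to a called gene. With the block they were Parp14 -0.039, Isg15 -0.017 and Rtp4 -0.05. With the excitatory covariate they were Ddx58 -0.083, Dhx58 -0.241, Eif2ak2 -0.037, Irf9 -0.175, Usp18 -0.474, Trim25 -0.079, Parp14 -0.328, Ifit1 -0.242, Ifit3 -0.097, Isg15 -0.378, Oas1a -0.324, Oas3 -0.067, Oasl2 -0.276, Mx1 -0.008, Bst2 -0.238, Rsad2 -0.465, Ifi44 -0.587, Rtp4 -0.607, Xaf1 -0.05, H2-K1 -0.179, H2-D1 -0.083, Tap1 -0.059 and Tap2 -0.066. With limma-voom they were Usp18 -0.005, Dtx3l -0.001, Parp14 -0.063, Isg15 -0.017, Oas1a -0.013, Bst2 -0.087, Rsad2 -0.049, Ifi44 -0.087, Rtp4 -0.241 and Tap2 -0.008. Without HET 4 and HET 6 they were Dtx3l -0.007, Parp14 -0.037, Isg15 -0.126, Bst2 -0.099, Rsad2 -0.047, Ifi44 -0.004, Rtp4 -0.284 and Tap1 -0.044. With the oligodendrocyte covariate they were Parp14 -0.06, Isg15 -0.022, Ifi44 -0.014 and Rtp4 -0.013. With each library left out in turn, Usp18 ran from -0.065 to 0.536, Parp14 from -0.14 to 0.113, Isg15 from -0.205 to 0.162, Isg20 from -0.309 to 0.155, Bst2 from -0.1 to 0.072, Rsad2 from -0.114 to 0.297, Ifi44 from -0.179 to 0.41, Rtp4 from -0.324 to 0.166, H2-K1 from -0.03 to 0.068 and H2-D1 from -0.018 to 0.06. Of these, Usp18, Isg15, Rsad2, Ifi44 and Rtp4 changed sign without HET 4 alone.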
